A study of Homo sapiens with 8 samples.

Results

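The G2/M and mitosis genes are 56 listed human genes that act between the end of DNA replication and the separation of daughter cells, and all 56 were found by symbol among 58884 gene identifiers in the tables. Their RNA was followed in 4 established lines of human thyroid cancer, which gave 8 RNA-seq libraries, each alone in its group. The 8 groups were 8505C with an siRNA against NR1D1 (labelled NR1D1 knockdown) and 8505C with a control siRNA, CAL-62 with the same pair of treatments, TPC-1 with an NR1D1 vector (labelled NR1D1 overexpression) and TPC-1 with an empty vector, and FTC-133 with the same pair of vectors. All controls carry the label WT. 8505C and CAL-62 come from anaplastic thyroid carcinomas, TPC-1 from a papillary and FTC-133 from a follicular one. NR1D1 encodes REV-ERB alpha, a heme-binding nuclear receptor of the circadian clock that represses genes with its binding element. The siRNA sequence, the time of harvest, the vector's promoter, the number of cultures and any cell synchronisation are not stated by the labels.

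Cells enter mitosis when cyclin B and CDK1 are switched on by CDC25 phosphatases, and Polo-like and Aurora kinases then build the spindle together with kinesin motors. Kinetochores tie chromosomes to the spindle, and a checkpoint of BUB and MAD proteins holds back anaphase until every chromosome is attached. The anaphase-promoting complex with CDC20 then has securin and cyclin B degraded, separase opens cohesin, and cytokinesis divides the cell. The RNAs of these genes peak together late in the cell cycle, because the DREAM complex represses their promoters in quiescent and G1 cells and B-MYB (MYBL2), the MuvB core and FOXM1 activate them in G2. Their summed RNA is therefore widely used as a proliferation measure in tumours.

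In 8505C, 53 of the 55 measured members were higher after NR1D1 siRNA than after control siRNA, and 29 of them were at least 2-fold higher. Of all genes 52.9% were higher there. In CAL-62, which also received an siRNA against NR1D1, 53 of 56 were lower, beside 67.4% of all genes, and 3 were at least 2-fold lower. Only 34 of 56 were lower, beside 42.4% of all genes, and 0 by 2-fold, once genes of the mitochondrial genome were left out of the scaling. With the NR1D1 vector, members were split evenly by direction in TPC-1, with 28 higher and 28 lower, and in FTC-133, with 28 higher and 27 lower of 55 measured, and of all genes 46.8% were higher in TPC-1 and 54.8% in FTC-133. A member counted as measured where its mean over the line's pair of libraries was at least 1 TPM, and folds are ratios of (TPM + 1). The share of all genes past the same fold was 11.9% higher and 5.86% lower in 8505C, 5.3% higher and 10.7% lower in CAL-62, 6.28% higher and 5.25% lower in TPC-1, and 9.76% higher and 6.91% lower in FTC-133. Members past 2-fold were 52.7% of those measured in 8505C, and 0 were 2-fold lower there. In CAL-62 the 5.36% of members that were 2-fold lower lay under the 10.7% of all genes. With 1 library a group these counts have no test between conditions. In bulk RNA a larger share of cells in G2 and mitosis cannot be told apart from more of these RNAs in each cell.

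**Figure D1:**
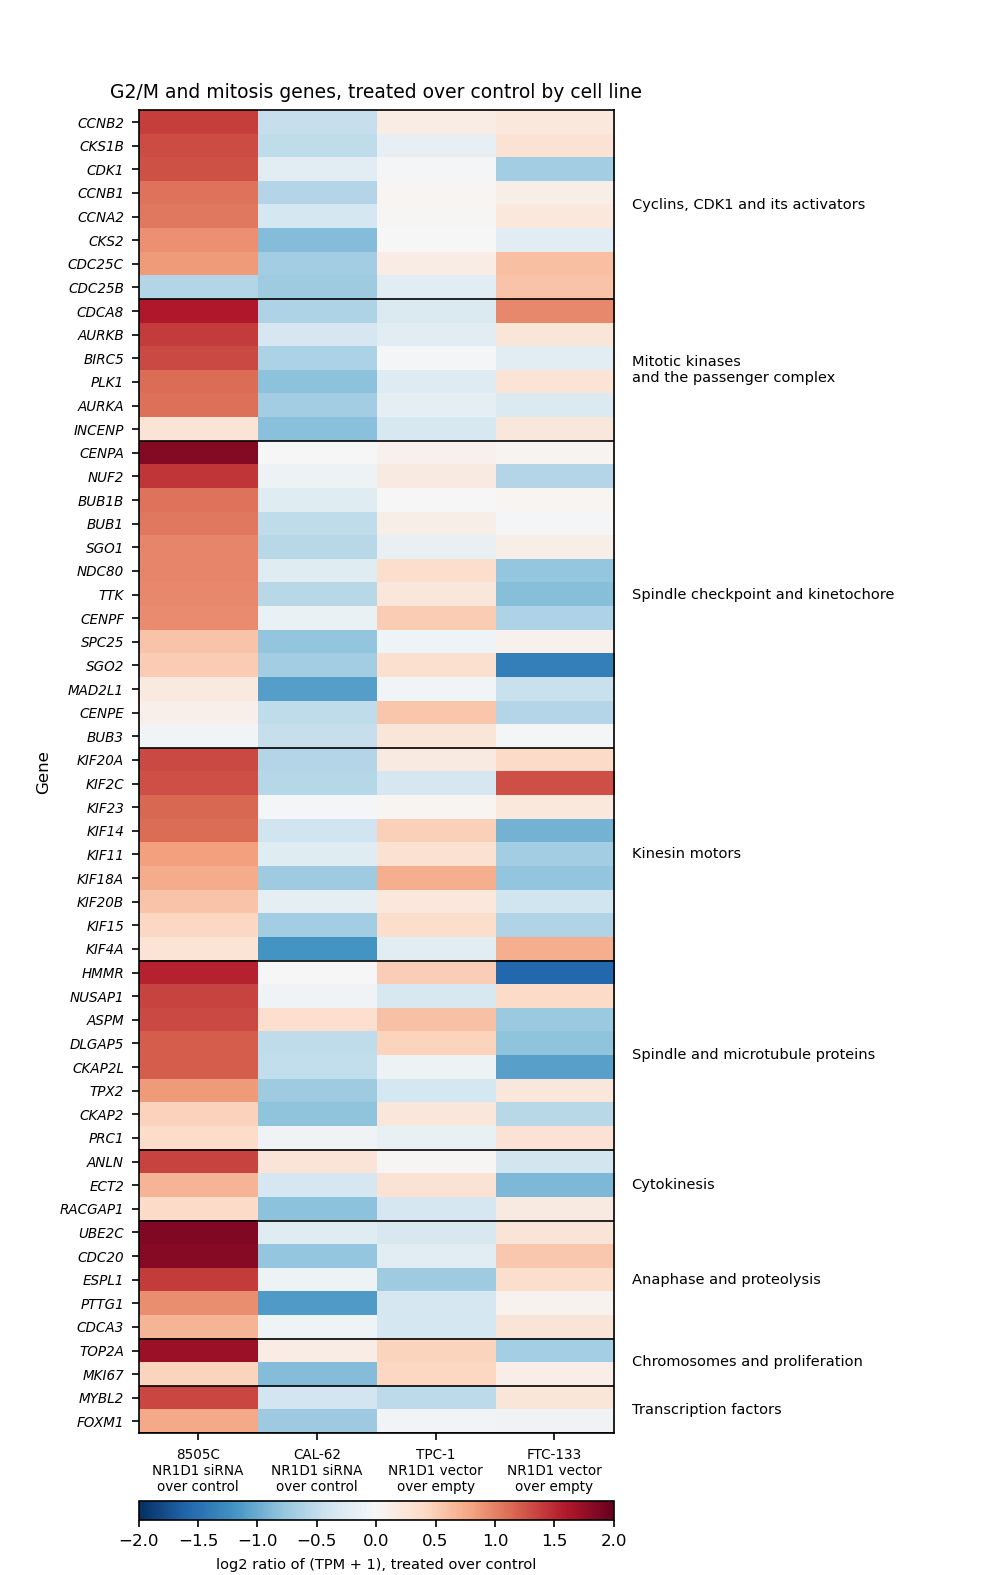
Log2 ratio of (TPM + 1), NR1D1 siRNA or NR1D1 vector over its control, for the 56 members (rows, by role) in the 4 cell lines (columns), with red for higher and blue for lower. The 8505C column is red for all but CDC25B and BUB3, the CAL-62 column is blue for all but ASPM, ANLN and TOP2A (22 of 56 are above 0 there without mitochondrial genes), and the vector lines hold both colours.

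NR1D1 itself was 11.2 TPM after its siRNA and 18.2 TPM after control siRNA in 8505C, and 10.1 TPM after its siRNA and 22.0 TPM after control siRNA in CAL-62. It was 209 TPM with the NR1D1 vector and 190.0 TPM with the empty vector in TPC-1, and 137 TPM with the NR1D1 vector and 105 TPM with the empty vector in FTC-133. On this scale its RNA thus differed less than 2-fold within the 8505C pair and within both vector pairs. Recovered read numbers were 12.9 to 23.2 in units of 1e+06 a library. The mitochondrial genome gave 67.8% of TPM after NR1D1 siRNA and 57.2% after control siRNA in CAL-62, against 15.7% to 29.3% in the 6 libraries of the other lines. The NR1D1 values were not rescaled without these genes. Whether NR1D1 RNA was lowered more in CAL-62 than in 8505C therefore cannot be read from them. Of 10 thyroid follicular markers, 2 to 4 reached 1 TPM in any library, and TG and SLC5A5, which mark hormone-producing cells, were at or near 0 in all 8. PAX8, a thyroid transcription factor gene, was at 0.50 TPM in both 8505C libraries, against 53.7 to 330.1 TPM in the other 6. NKX2-1, a thyroid and lung transcription factor gene, had 100.3 TPM after NR1D1 siRNA and 63.4 TPM after control siRNA in 8505C, was at 0 in CAL-62 and TPC-1, and had 22.0 TPM with the NR1D1 vector and 14.2 TPM with the empty vector in FTC-133. These markers thus set the 8505C libraries apart, and the identity of the line was not tested. Of 8 epithelial markers, 3 to 8 reached 1 TPM. The 7 leukocyte and endothelial markers summed to 146 TPM after NR1D1 siRNA and 51.2 TPM after control siRNA in 8505C, and to at most 1.65 TPM in every other library. Nearly all of it was CDH5, an endothelial cadherin gene, with 139.6 TPM after NR1D1 siRNA and 46.8 TPM after control siRNA, while the pan-leukocyte gene PTPRC was at 0.02 TPM after NR1D1 siRNA and at 0 after control siRNA. The part of CDH5-expressing cells in the 8505C result was not tested.

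The members share promoter features that the list did not use. The DREAM and MuvB complexes bind the cell cycle genes homology region (CHR), and NF-Y binds CCAAT boxes, so each promoter was searched from 250 bases before to 50 bases after its RefSeq start. RefSeq promoters on GRCh38.p14 were matched by symbol for 48 of the 56 members. A CHR core, TTTGAA or TTCGAA on either strand, was found in 38 of 48 members (79.2%), against 19.5% of the 27305 genes in the table and 17.5% of 15843 protein-coding genes. CCAAT on either strand was found in 39 of 48 (81.2%), against 39.7% of all genes and 42.1% of protein-coding genes. Both motifs stood in the same promoter window in 33 members (68.8%), against 7.85% of all genes. AGGTCA, the core of the REV-ERB binding element, was in the windows of 4 members (8.33%), CDC25B, AURKB, BUB1 and KIF20A, against 16.5% of all genes. A match of letters does not show binding.

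The 110 bases before the RefSeq start are printed for 8 members, 5′ to 3′, with CHR and CCAAT matches in capitals (CCAAT reads ATTGG on the other strand). CCNB2, PLK1, CDC20, CDCA8 and KIF4A show the pair of motifs, CENPA has a CHR alone in this stretch, CCNB1 has a pair of CCAAT boxes and no CHR match, and KIF2C has neither. In CDCA8 the capitals hold a CHR and a CCAAT box that overlap.
CCNB2, chr15:59105036-59105145, plus strand: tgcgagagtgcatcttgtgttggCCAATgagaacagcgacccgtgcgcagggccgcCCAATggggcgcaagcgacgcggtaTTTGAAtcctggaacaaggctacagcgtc
PLK1, chr16:23678779-23678888, plus strand: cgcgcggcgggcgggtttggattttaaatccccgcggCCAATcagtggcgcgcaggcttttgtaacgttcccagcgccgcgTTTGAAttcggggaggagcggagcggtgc
CDC20, chr1:43358871-43358980, plus strand: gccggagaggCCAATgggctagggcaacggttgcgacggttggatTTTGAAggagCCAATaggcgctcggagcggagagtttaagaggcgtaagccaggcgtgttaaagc
CDCA8, chr1:37692406-37692515, plus strand: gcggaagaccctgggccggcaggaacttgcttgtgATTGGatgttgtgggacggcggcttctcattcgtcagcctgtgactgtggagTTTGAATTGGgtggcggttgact
CENPA, chr2:26785946-26786055, plus strand: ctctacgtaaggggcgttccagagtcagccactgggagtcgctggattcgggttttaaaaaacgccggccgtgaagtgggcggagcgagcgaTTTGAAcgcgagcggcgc
KIF4A, chrX:70289994-70290103, plus strand: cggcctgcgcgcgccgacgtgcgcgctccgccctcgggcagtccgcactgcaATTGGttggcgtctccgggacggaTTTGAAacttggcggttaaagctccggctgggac
CCNB1, chr5:69167040-69167149, plus strand: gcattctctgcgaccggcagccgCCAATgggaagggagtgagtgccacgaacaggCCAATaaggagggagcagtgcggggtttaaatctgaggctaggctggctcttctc
KIF2C, chr1:44739727-44739836, plus strand: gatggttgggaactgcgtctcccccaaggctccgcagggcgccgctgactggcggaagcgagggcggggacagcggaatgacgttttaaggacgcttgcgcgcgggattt

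The CHR match of CCNB2 and that of PLK1 begin at base -29 before the start. Across the 48 promoters, CHR matches were concentrated at the start site, with 25 matches per 100 promoters from -50 to -26, 27.1 from -25 to -1 and 16.7 from 0 to 24, against 1.59, 1.22 and 1.41 over all genes. CCAAT boxes lay a little further upstream, with 54.2 matches per 100 promoters from -75 to -51, against 8.05 over all genes. In 30 members the CHR had a CCAAT box upstream of it, at a median distance of 33.5 bases between their first bases, and in 16 of these the distance was 20 to 40 bases. The median log2 ratio in 8505C was 1.07 with a CHR match and 1.07 without, and in CAL-62 it was -0.43 with and -0.57 without. CCNB1, with no CHR match, and KIF2C, with neither motif, were both at least 2-fold higher in 8505C.

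**Figure D2:**
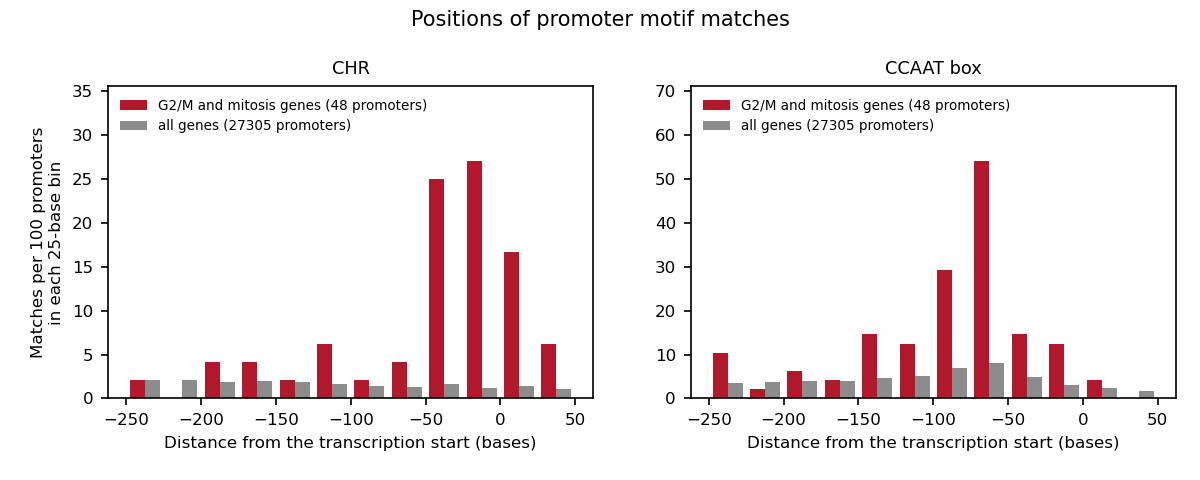
Matches per 100 promoters in bins of 25 bases against distance from the transcription start, for the CHR (left) and the CCAAT box (right), in the 48 matched members (red) and all 27305 genes (grey). Members peak at the start site for the CHR, up to 27.1 per 100, and from -75 to -51 for CCAAT, at 54.2 per 100, and all genes stay near flat for the CHR.

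The cyclins, CDK1 and its activators were higher in 7 of 8 cases in 8505C, with a median log2 ratio of 1.07, and lower in all 8 in CAL-62, with a median of -0.55 (6 of 8 lower and -0.15 without mitochondrial genes). CCNB1, the cyclin B1 gene whose protein drives entry into mitosis, had 244 TPM after NR1D1 siRNA and 114 TPM after control siRNA in 8505C. In CAL-62 it had 145 TPM after NR1D1 siRNA and 219.9 TPM after control siRNA. With the NR1D1 vector it had 291 TPM in TPC-1 and 197 TPM in FTC-133, against 282 and 182 TPM with the empty vector in these lines. The 8505C pair differed by more than the counting error, at a TPM ratio of 2.13 (95% interval 2.00 to 2.28), and so did the CAL-62 pair in the other direction, at 0.661 (95% interval 0.628 to 0.697). Its neighbour in function CCNB2 had the largest ratio of the group in 8505C, with 105 TPM after NR1D1 siRNA and 39.6 TPM after control siRNA and a log2 ratio of 1.38, and -0.46 in CAL-62. CDK1, the kinase that both cyclins activate, had 71.5 TPM after NR1D1 siRNA and 28.9 TPM after control siRNA in 8505C and 21.2 TPM with the NR1D1 vector and 34.8 TPM with the empty vector in FTC-133, where it was lower with the NR1D1 vector. The intervals for these ratios, here and below, cover counting error only and say nothing of the spread between cultures.

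CDC25B, a phosphatase that activates CDK1, went the other way from the rest of the group in 8505C. It had 189.8 TPM after NR1D1 siRNA and 287 TPM after control siRNA in 8505C, a log2 ratio of -0.59. In CAL-62 it had 39.5 TPM after NR1D1 siRNA and 65.4 TPM after control siRNA, and with the NR1D1 vector it had 91.6 TPM in TPC-1 and 187 TPM in FTC-133, against 106 and 126 TPM with the empty vector in these lines. It was thus lower after the siRNA in both siRNA lines, and it was the member with the highest control level in 8505C. Its paralog CDC25C was higher in 8505C, with 14.7 TPM after NR1D1 siRNA and 7.70 TPM after control siRNA, and the log2 ratio was -0.69 in CAL-62. The CKS proteins, small CDK-binding adaptors, had like signs: CKS1B and CKS2 had log2 ratios of 1.31 and 0.92 in 8505C and -0.50 and -0.87 in CAL-62. Reads of CKS1B and of some other members may be split with processed pseudogene copies, and their values are uncertain by that amount.

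All 6 genes of the mitotic kinases and the chromosomal passenger complex, which corrects wrong attachments of chromosomes, were higher in 8505C (median log2 ratio 1.22), or 5 of 6 after adjustment for GC content and transcript length, where INCENP was at -0.11. All 6 were lower in CAL-62 (-0.66) and in TPC-1 (-0.25), or 5 of 6 in each without mitochondrial genes. CDCA8, the borealin subunit of the passenger complex, led in 8505C with 66.0 TPM after NR1D1 siRNA and 21.2 TPM after control siRNA. CAL-62 gave it 28.9 TPM after NR1D1 siRNA and 45.1 TPM after control siRNA. In the vector lines, with the NR1D1 vector it had 103 TPM in TPC-1 and 87.8 TPM in FTC-133, against 126 and 44.7 TPM with the empty vector in these lines. It was the only one of the 6 near 2-fold higher in FTC-133, at a TPM ratio of 1.96 (95% interval 1.76 to 2.20). AURKB, the kinase of the complex, had 48.2 TPM after NR1D1 siRNA and 17.7 TPM after control siRNA in 8505C, and BIRC5, its survivin subunit, had 87.5 TPM after NR1D1 siRNA and 34.4 TPM after control siRNA. INCENP, the scaffold subunit, stood lowest with 21.2 TPM after NR1D1 siRNA and 17.4 TPM after control siRNA, a log2 ratio of 0.27. The subunits of the passenger complex thus differed among themselves in 8505C from 1.22-fold to 3.12-fold in TPM. PLK1, the Polo-like kinase of spindle assembly, had 41.5 TPM after NR1D1 siRNA and 18.5 TPM after control siRNA, and AURKA, which matures the spindle poles, had 183 TPM after NR1D1 siRNA and 84.5 TPM after control siRNA.

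Of 13 spindle checkpoint and kinetochore genes, 12 were higher in 8505C (median log2 ratio 0.97) and all 13 were lower in CAL-62 (-0.50), or 8 of 13 without mitochondrial genes (-0.10). With the NR1D1 vector, 9 of 13 were higher in TPC-1 and 9 of 13 were lower in FTC-133. CENPA (ENSG00000115163, GRCh38 chr2:26764289-26801067, plus strand), the histone H3 variant that marks centromeres, had 27.7 TPM after NR1D1 siRNA and 7.01 TPM after control siRNA in 8505C and a TPM ratio of 3.96 (95% interval 2.98 to 5.32). In CAL-62 CENPA had 17.5 TPM after NR1D1 siRNA and 17.7 TPM after control siRNA. Likewise, with the NR1D1 vector it had 38.5 TPM in TPC-1 and 19.1 TPM in FTC-133, against 36.0 and 18.4 TPM with the empty vector in these lines. On this scale the pairs of these 3 lines hardly differed, but without mitochondrial genes the CAL-62 log2 ratio of CENPA was 0.39. The 8505C control stood far below all 7 other libraries for this gene, and the NR1D1 siRNA library of 8505C lay among them. BUB3, a checkpoint protein that also works outside mitosis, was the exception in 8505C, with 41.8 TPM after NR1D1 siRNA and 43.3 TPM after control siRNA and a ratio whose interval spanned 1. The BUB kinases BUB1 and BUB1B, which bind BUB3, had log2 ratios of 1.06 and 1.09 there. MAD2L1, the checkpoint effector that holds CDC20, had 24.5 TPM after NR1D1 siRNA and 21.3 TPM after control siRNA in 8505C. In CAL-62 it had 12.1 TPM after NR1D1 siRNA and 27.0 TPM after control siRNA. There it was more than 2-fold lower after NR1D1 siRNA (log2 ratio -1.09), but not without mitochondrial genes (-0.73). CENPE, a kinetochore motor, was nearly level in 8505C with 3.31 TPM after NR1D1 siRNA and 3.04 TPM after control siRNA.

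The shugoshins, which protect centromeric cohesin, parted in the vector lines. SGO2 had 8.10 TPM after NR1D1 siRNA and 5.41 TPM after control siRNA in 8505C. In CAL-62 the values were 7.37 TPM after NR1D1 siRNA and 12.6 TPM after control siRNA, and with the NR1D1 vector it had 13.97 TPM in TPC-1 and 5.10 TPM in FTC-133, against 11.01 and 14.8 TPM with the empty vector in these lines. In FTC-133 it was 2-fold lower with the NR1D1 vector, at a TPM ratio of 0.345 (95% interval 0.280 to 0.423), and SGO1 had 1.11 (95% interval 0.805 to 1.52), an interval that spans 1. In TPC-1 the signs were turned round, with log2 ratios of 0.32 for SGO2 and -0.15 for SGO1, and the SGO1 interval spanned 1 there too, from 0.772 to 1.04. The outer kinetochore subunits NDC80, NUF2 and SPC25, which bind microtubules as 1 complex, had log2 ratios of 0.97, 1.43 and 0.57 in 8505C. SGO1 shares 17.7% of its exon bases with other genes, and its value is uncertain by that amount.

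All 9 kinesin motors were higher in 8505C (median log2 ratio 0.82) and all 9 were lower in CAL-62 (-0.57), or 6 of 9 without mitochondrial genes (-0.17). KIF20A, which works in cytokinesis, led in 8505C with 122 TPM after NR1D1 siRNA and 48.1 TPM after control siRNA. KIF4A (ENSG00000090889, GRCh38 chrX:70290090-70420832, plus strand), a chromosome-bound motor, was nearest to its control there with 36.2 TPM after NR1D1 siRNA and 29.6 TPM after control siRNA and was the lowest member in CAL-62. In CAL-62 it had 17.2 TPM after NR1D1 siRNA and 40.8 TPM after control siRNA, a TPM ratio of 0.421 (95% interval 0.378 to 0.469). Its log2 ratio there was -0.82 without mitochondrial genes. The motors went different ways in the vector lines. KIF2C (ENSG00000142945, GRCh38 chr1:44739818-44767767, plus strand), a microtubule depolymerase at centromeres, was the only member 2-fold higher in FTC-133, with 139 TPM with the NR1D1 vector and 56.1 TPM with the empty vector. In TPC-1 it had 97.3 TPM with the NR1D1 vector and 123 TPM with the empty vector. KIF18A, which damps chromosome movements, ran the opposite way, with 18.4 TPM with the NR1D1 vector and 10.8 TPM with the empty vector in TPC-1 and 10.2 TPM with the NR1D1 vector and 18.4 TPM with the empty vector in FTC-133. KIF11, the motor that separates the spindle poles, had log2 ratios of 0.30 in TPC-1 and -0.70 in FTC-133.

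The spindle and microtubule proteins were higher in 8 of 8 cases in 8505C (median log2 ratio 1.21) and lower in 7 of 8 in CAL-62 (-0.28), where without mitochondrial genes 4 of 8 were lower and the median was 0.06. HMMR (ENSG00000072571, GRCh38 chr5:163460203-163491945, plus strand), a spindle-bound hyaluronan receptor, varied most between lines. It had 57.4 TPM after NR1D1 siRNA and 19.2 TPM after control siRNA in 8505C. CAL-62 had 21.4 TPM after NR1D1 siRNA and 21.5 TPM after control siRNA, and with the NR1D1 vector it had 29.6 TPM in TPC-1 and 4.26 TPM in FTC-133, against 20.6 and 14.6 TPM with the empty vector in these lines. On this scale it was thus high after the siRNA in 8505C, level in CAL-62 and low with the NR1D1 vector in FTC-133. The TPM ratio in FTC-133 was 0.293 (95% interval 0.221 to 0.384). Without mitochondrial genes the CAL-62 log2 ratio of HMMR was 0.40. CKAP2L, which binds spindle microtubules, was also 2-fold lower in FTC-133, with 4.53 TPM with the NR1D1 vector and 10.7 TPM with the empty vector, and it had 25.3 TPM after NR1D1 siRNA and 10.4 TPM after control siRNA in 8505C. ASPM, a spindle pole protein, had 17.4 TPM after NR1D1 siRNA and 6.38 TPM after control siRNA in 8505C. In CAL-62 it had 43.0 TPM after NR1D1 siRNA and 33.9 TPM after control siRNA. With the scaling as given it was 1 of the 3 members higher in both siRNA lines, but without mitochondrial genes 22 of 56 were higher in CAL-62. PRC1, which bundles antiparallel microtubules, was the 1 member under the level filter, with 0.29 to 1.82 TPM in the 8 libraries; 58.4% of its exon bases overlap other genes, and 62.2% of those of NUSAP1 do, so the counts of both are uncertain.

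The genes of anaphase and proteolysis had a median of 1.39 in 8505C, the highest of the role groups on this scale, but 1.08 after adjustment for GC content and length, under that of 5 other groups. All 5 were higher there, while all 5 were lower in TPC-1 (-0.33) and higher in FTC-133 (0.25). In CAL-62 all 5 were lower (-0.24), but without mitochondrial genes 3 of 5 were higher and the median was 0.16. UBE2C (ENSG00000175063, GRCh38 chr20:45812576-45816957, plus strand), the ubiquitin-conjugating enzyme of the anaphase-promoting complex, had 225 TPM after NR1D1 siRNA and 61.6 TPM after control siRNA in 8505C and a TPM ratio of 3.66 (95% interval 3.25 to 4.13). For CAL-62 the values were 65.4 TPM after NR1D1 siRNA and 77.6 TPM after control siRNA. For the vector lines, with the NR1D1 vector it had 180.2 TPM in TPC-1 and 334 TPM in FTC-133, against 225 and 280.0 TPM with the empty vector in these lines. CDC20 (ENSG00000117399, GRCh38 chr1:43358955-43363203, plus strand), the activator of that complex, had 161 TPM after NR1D1 siRNA and 45.0 TPM after control siRNA in 8505C and a TPM ratio of 3.58 (95% interval 3.21 to 4.003). CAL-62 cells had 41.0 TPM after NR1D1 siRNA and 70.8 TPM after control siRNA, and with the NR1D1 vector it had 385 TPM in TPC-1 and 436 TPM in FTC-133, against 449 and 301 TPM with the empty vector in these lines. The 8505C libraries thus stayed under all 4 vector-line libraries for CDC20. PTTG1, the securin gene, had 123 TPM after NR1D1 siRNA and 64.3 TPM after control siRNA in 8505C. In CAL-62 it had 48.1 TPM after NR1D1 siRNA and 107 TPM after control siRNA. There it was 2-fold lower after NR1D1 siRNA (log2 ratio -1.13), but not without mitochondrial genes (-0.73). Near-identical copies of PTTG1 in the genome leave its count uncertain. ESPL1, the separase gene, had 11.002 TPM after NR1D1 siRNA and 3.57 TPM after control siRNA in 8505C and 23.0 TPM with the NR1D1 vector and 38.4 TPM with the empty vector in TPC-1, its lowest ratio of the 4 lines. CDCA3, which serves WEE1 degradation, had the smallest ratio of the group in 8505C, with 7.70 TPM after NR1D1 siRNA and 4.43 TPM after control siRNA.

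The remaining members have broader parts in proliferation. TOP2A, the topoisomerase that untangles sister chromatids, had 335 TPM after NR1D1 siRNA and 102 TPM after control siRNA in 8505C. Its CAL-62 values were 137 TPM after NR1D1 siRNA and 124 TPM after control siRNA, and with the NR1D1 vector it had 146 TPM in TPC-1 and 66.7 TPM in FTC-133, against 106 and 108 TPM with the empty vector in these lines. TOP2A control levels lay within 1.21-fold across the 4 lines, or 2.25-fold without mitochondrial genes, with the CAL-62 control highest on both scales. The NR1D1 siRNA library of 8505C stood above all 7 others. MKI67, which codes for the Ki-67 antigen used to score proliferation in tumours, had 42.4 TPM after NR1D1 siRNA and 30.8 TPM after control siRNA in 8505C and 46.0 TPM after NR1D1 siRNA and 85.1 TPM after control siRNA in CAL-62. Of the cytokinesis genes, ANLN, the anillin of the contractile ring, had 118 TPM after NR1D1 siRNA and 45.5 TPM after control siRNA in 8505C, and RACGAP1, a subunit of centralspindlin, had 46.5 TPM after NR1D1 siRNA and 35.5 TPM after control siRNA. The transcription factor MYBL2, which activates these genes with MuvB, had 112 TPM after NR1D1 siRNA and 44.1 TPM after control siRNA in 8505C and 35.6 TPM after NR1D1 siRNA and 46.7 TPM after control siRNA in CAL-62. FOXM1, which follows it at the same promoters, had 31.2 TPM after NR1D1 siRNA and 18.1 TPM after control siRNA in 8505C and 18.6 TPM after NR1D1 siRNA and 31.5 TPM after control siRNA in CAL-62. The FOXM1 and MYBL2 ratios in 8505C lay within the range of the other members.

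**Figure D3:**
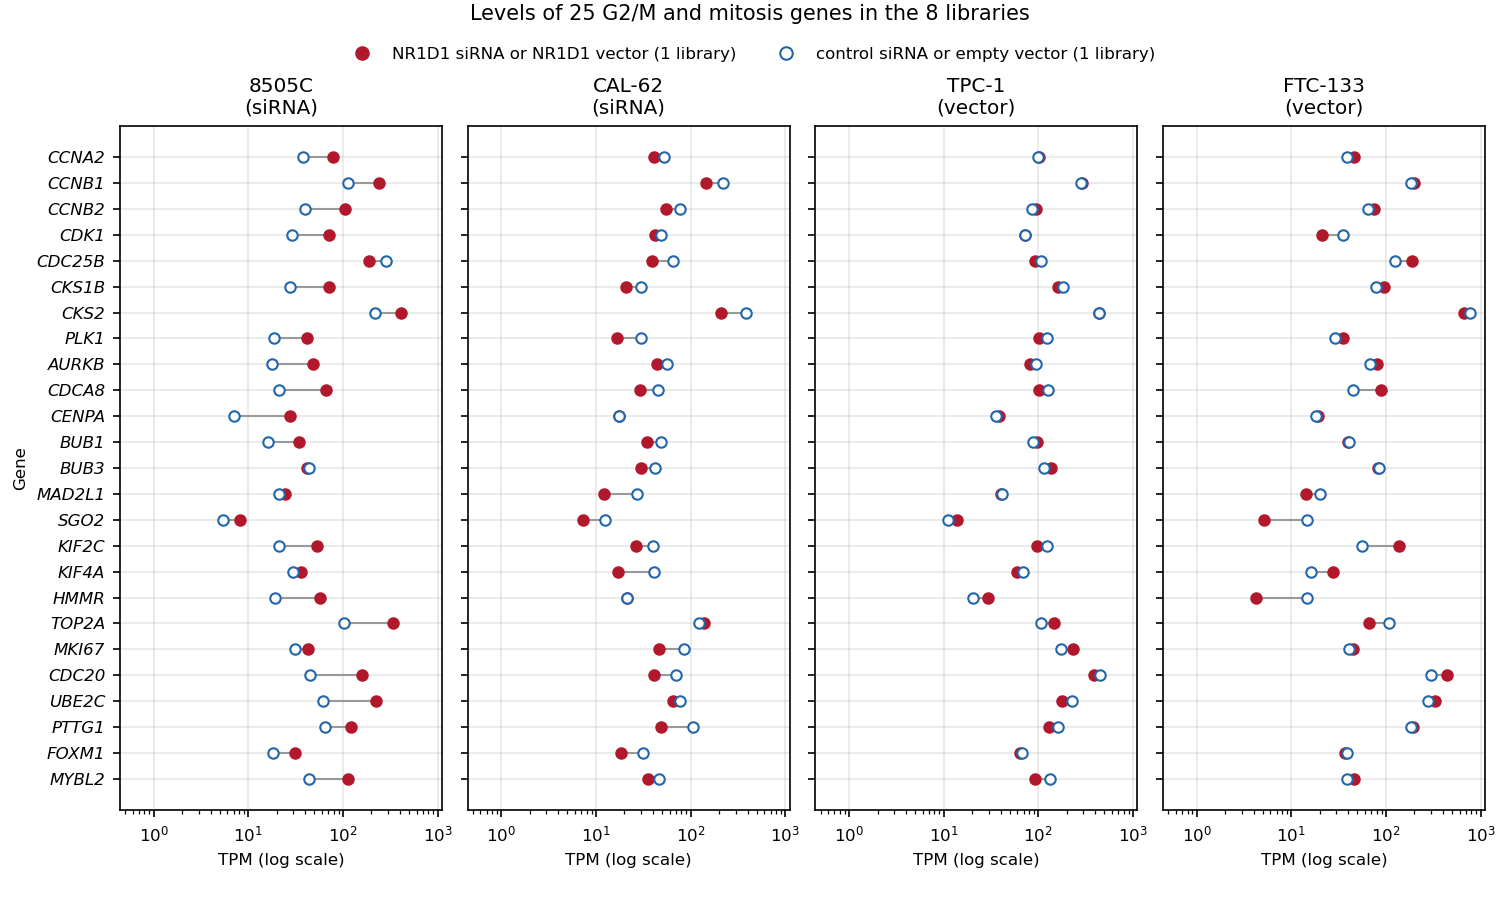
TPM on a log scale in the library with NR1D1 siRNA or NR1D1 vector (filled) and in its control (open) for 25 members (rows) in the 4 lines (panels), with 1 library a point. In 8505C the filled point is to the right for all shown but CDC25B and BUB3, and in CAL-62 to the left for most, while in FTC-133 HMMR and SGO2 lie far to the left and KIF2C to the right.

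The controls differed in level, and the 8505C control was lowest. The 56 members summed to 2078 TPM in the 8505C control, 3113 TPM in the CAL-62 control, 3777 TPM in FTC-133 with empty vector and 5491 TPM in TPC-1 with empty vector. After rescaling without mitochondrial genes they were 0.294% of TPM in the 8505C control, 0.728% in the CAL-62 control, 0.457% in FTC-133 and 0.665% in TPC-1, so 8505C is lowest on both scales, while TPC-1 is highest with mitochondrial genes and CAL-62 without them. The 8505C control was the lowest of the 4 controls for 39 of 56 members, and the TPC-1 control the highest for 40 of 56. Without mitochondrial genes the 8505C control was lowest for 38, and the highest was the CAL-62 control for 34 and the TPC-1 control for 17. The highest control was 3.58 times the lowest at the median member, from 1.21 for TOP2A to 10.8 for ESPL1 and 9.98 for CDC20, and 3.85 times without mitochondrial genes, from 1.85 for KIF20A to 9.20 for ESPL1. With 1 control a line, and tables made separately, these differences have no test. The share of all genes with the same lowest or highest control was not counted.

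The higher values after NR1D1 siRNA in 8505C thus started from the lowest control. The sum reached 4132 TPM after NR1D1 siRNA, against 2078 TPM after control siRNA, and in CAL-62 it was 2164 TPM after NR1D1 siRNA, against 3113 TPM after control siRNA. Without mitochondrial genes the sum in 8505C was 0.579% after NR1D1 siRNA and 0.294% after control siRNA, and in CAL-62 it was 0.673% after NR1D1 siRNA and 0.728% after control siRNA. With the NR1D1 vector it was 5312 TPM in TPC-1 and 3990 TPM in FTC-133, against 5491 and 3777 TPM with the empty vector in these lines. The NR1D1 siRNA library of 8505C lay above the CAL-62 control for 31 of 56 members, above the FTC-133 control for 39 and above the TPC-1 control for 13. The 8505C control lay above those same controls for 4, 13 and 2 members. For these comparisons, on either scale, the share of all genes was not counted. Without mitochondrial genes the NR1D1 siRNA library of 8505C lay above the CAL-62 control for 10 members, above the FTC-133 control for 42 and above the TPC-1 control for 18, and the 8505C control lay above them for 1, 17 and 5.

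By counting error alone, the TPM ratio had a 95% interval above 1 for 52 of 56 members in 8505C, below 1 for CDC25B and spanning 1 for 3, and for 23 it lay above 2. In CAL-62 it lay above 1 for 3 members, below 1 for 45 and across 1 for 8. TPC-1 gave 22 above, 18 below and 16 across, and FTC-133 gave 23 above, 24 below and 9 across. These intervals hold only on the scale with mitochondrial genes. CDK1, KIF11 and CENPF lay below 1 in CAL-62, yet had log2 ratios of 0.18, 0.17 and 0.27 there without mitochondrial genes. The same counts over all genes were not made. The median log2 ratio of the 55 members past the filter was 1.06 in 8505C, -0.50 in CAL-62, 0.02 in TPC-1 and 0.03 in FTC-133, against 0.03, -0.22, 0.00 and 0.03 for all 17595 genes at that filter. In CAL-62 the direction of single members depends on the scale: without the genes of the mitochondrial genome the members' median was -0.11, with 22 higher and 34 lower of 56, and that of all genes was 0.06. With trimmed mean scaling the CAL-62 median was -0.28, with 13 of 55 higher, and 0 members were then 2-fold lower under either scaling. The 8505C median stayed between 0.98 and 1.11 under every scaling, filter, pseudocount and adjustment tried, with 2 members lower in each. These were CDC25B and BUB3, except after the GC and length adjustment, where they were CDC25B and INCENP (-0.11) and BUB3 was at 0.08.

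The contrast of the 8505C ratio with the mean ratio of the other 3 lines was fitted with limma. Each line was 1 observation, with 2 residual degrees of freedom, so the lone 8505C ratio is assumed to vary like the others. The other lines join CAL-62 with an siRNA against NR1D1 to TPC-1 and FTC-133 with an NR1D1 vector. Their mean and spread thus also hold the difference between siRNA and vector. The contrast had a median of 1.20 over the members, against 0.13 over all genes. After Benjamini-Hochberg adjustment over 17595 genes limma called 0 members and 0 genes in all (0% of genes), with a smallest adjusted p of 0.999 for members. At an unadjusted p under 0.05, limma gave 19 of 55 members, all higher in 8505C, against 3.51% of all genes higher, 1.02% lower and 4.54% in either direction. The members were listed with their 8505C values known, so this count is not independent support. Standard errors ran from 0.40 to 0.88. The largest contrasts on the log2 scale were CDC20 1.97 (SE 0.64), UBE2C 1.96 (SE 0.47), HMMR 1.89 (SE 0.88), CENPA 1.80 (SE 0.40) and CKAP2L 1.77 (SE 0.54), followed by TOP2A 1.73 (SE 0.59), BIRC5 1.61 (SE 0.46), CDK1 1.59 (SE 0.47), NUF2 1.59 (SE 0.49) and CDCA8 1.58 (SE 0.73). At the other end were CDC25B -0.47 (SE 0.62), BUB3 0.03 (SE 0.48), CENPE 0.28 (SE 0.63) and KIF4A 0.51 (SE 0.81). PRC1, under the level filter and without a fit, had a difference of 0.34. With the scaling as given, the 8505C ratio exceeded that of every other line for 51 of 56 members. The others were CDC25B, BUB3, CENPE, KIF2C and KIF4A. With trimmed mean scaling KIF15, KIF18A and MKI67 also fell below TPC-1, at 0.34, 0.66 and 0.37 against 0.37, 0.74 and 0.43. How many of all genes show this pattern was not counted. The contrast calls no member after adjustment, and its unadjusted count was 8 without TPC-1 and 11 without CAL-62.

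The mean of the siRNA lines gave no member past the threshold. The mean of the 8505C and CAL-62 ratios had a median of 0.30 over the members, against -0.07 over all genes, and limma called 0 members (0% of all genes), with a smallest adjusted p of 0.419 for members and 0 members at an unadjusted p under 0.05, against 4.5% of all genes higher, 7.52% lower and 12% in either direction. That median was -0.50 with CAL-62 alone and 1.06 with 8505C alone. For the vector lines the median was -0.05, against 0.00 over all genes, with 0 members called, a smallest adjusted p of 1 and 0 members at an unadjusted p under 0.05, against 2.84% of all genes higher, 1.62% lower and 4.46% in either direction. The fits share the 4 ratios with the contrast above. Of the 29 members that were 2-fold higher in 8505C, 26 were lower in CAL-62, beside 32.3% of the 1855 genes that were 2-fold higher in 8505C. Without mitochondrial genes 15 of 30 were lower in CAL-62, beside 20.7% of such genes. With the scaling as given 0 of 56 members had the same direction in all 4 lines, but this too depends on the scale. Without mitochondrial genes CCNA2, BUB1B, CENPA and KIF23, and no other member, were higher in all 4 lines. Their CAL-62 log2 ratios were 0.05, 0.16, 0.39 and 0.38. The share of all genes with the same direction in all 4 lines was not counted.

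Although the vector lines had medians near 0, their members were ordered by base composition, and in opposite ways. GC content was taken from the longest annotated transcript, and the members run from 34.2% to 60.5% GC with a median of 42.5%, against 47.6% for all genes. Across the 55 members, Spearman's rho between GC content and log2 ratio was -0.73 in TPC-1 and 0.80 in FTC-133, against -0.07 and 0.23 across all genes. In 8505C and CAL-62 it was 0.20 and -0.29 across members and 0.30 and 0.04 across all genes. Members share libraries, and GC content goes with transcript length, for which rho was 0.44 in TPC-1 and -0.36 in FTC-133, so these are descriptions without a test. The 19 members lowest in GC, such as HMMR, SGO2 and KIF18A, had a median log2 ratio of 0.30 in TPC-1 and -0.70 in FTC-133. Genes of the same GC range had medians of 0.02 and -0.22 there. The 18 members highest in GC, such as KIF2C, CDC20 and ESPL1, had -0.25 in TPC-1 and 0.25 in FTC-133, beside -0.03 and 0.15 for genes of that range. In 8505C the medians were 0.97, 1.01 and 1.30 from the lowest to the highest GC group, with 53 of the 55 members higher. After each line was adjusted for GC content and length over all genes, the log2 ratio in FTC-133 was -1.27 for HMMR and -0.96 for SGO2, 1 member was still 2-fold lower there, and the 8505C median was 1.11. Beyond this adjustment the part of base composition was not tested.

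**Figure D4:**
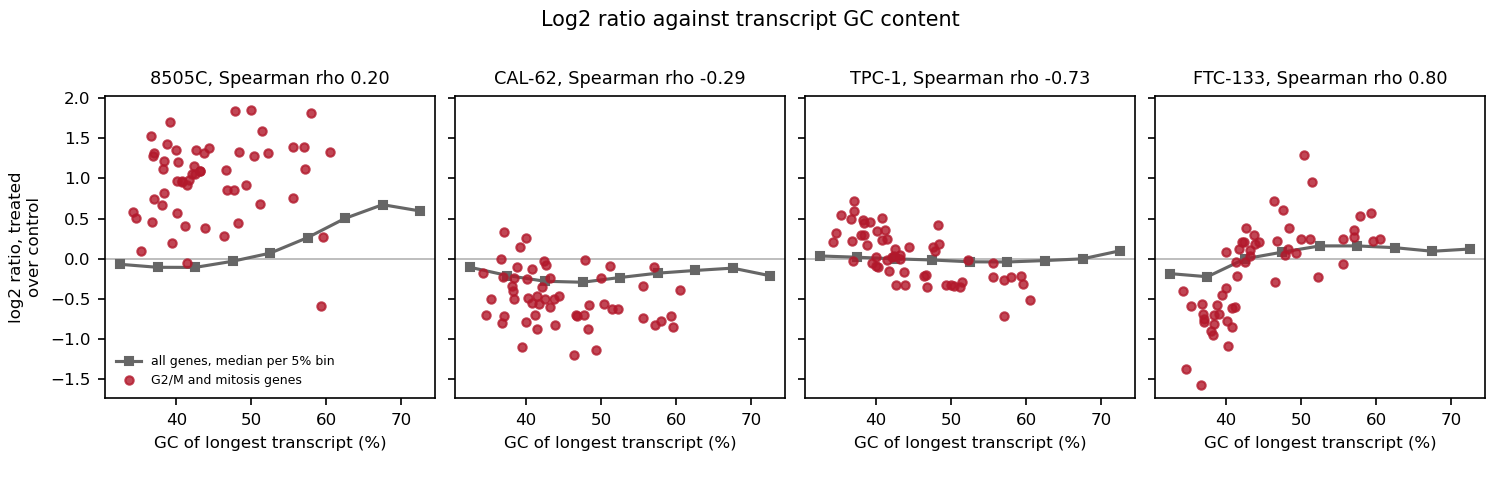
Log2 ratio of (TPM + 1), NR1D1 siRNA or vector over control, against GC content of the longest transcript for 55 members (red points), with the median of all genes per bin of 5% GC (grey line), in the 4 lines. Members slope down in TPC-1 (rho -0.73) and up in FTC-133 (rho 0.80), and in 8505C most lie above the grey line at every GC content.

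Other lists of cell cycle genes were read beside the members. A list of 35 further late cell cycle genes had a median log2 ratio of 0.96 in 8505C, with 34 of 35 genes higher and 15 at least 2-fold higher, beside the 11.9% of all genes. In CAL-62 the median was -0.48, or -0.10 without mitochondrial genes. TROAP, a spindle-associated protein, had 18.4 TPM after NR1D1 siRNA and 3.52 TPM after control siRNA in 8505C and 18.2 TPM after NR1D1 siRNA and 18.4 TPM after control siRNA in CAL-62. PLK4, the kinase of centriole duplication, had 18.9 TPM after NR1D1 siRNA and 5.17 TPM after control siRNA in 8505C, and KIFC1, a minus-end-directed kinesin, had 50.2 TPM after NR1D1 siRNA and 18.5 TPM after control siRNA. Among 24 G1/S and replication genes the 8505C median was 0.45, with 5 genes 2-fold higher and 1 gene 2-fold lower, and the CAL-62 median was -0.44, or -0.05 without mitochondrial genes. TK1, the thymidine kinase gene, had 204 TPM after NR1D1 siRNA and 41.2 TPM after control siRNA in 8505C, and CDT1, the licensing factor, had 30.6 TPM after NR1D1 siRNA and 6.63 TPM after control siRNA. The gene 2-fold lower was CCNE1, the cyclin E1 gene, with 1.42 TPM after NR1D1 siRNA and 6.12 TPM after control siRNA, named for that value. In 8505C the G1/S median thus lay below that of the mitotic genes. All 6 lists had 0 genes past the adjusted limma threshold in the contrast.

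Lists of genes that serve mitosis or steer the cycle from other positions had smaller medians in 8505C. The 17 subunits and regulators of the anaphase-promoting complex had an 8505C median of 0.00, with 0 past 2-fold and 8 higher against 9 lower, and CAL-62 had -0.42, or -0.03 without mitochondrial genes. CDC27, a core subunit, had 181 TPM after NR1D1 siRNA and 119 TPM after control siRNA in 8505C, and UBE2S, its chain-elongating enzyme, had 54.0 TPM after NR1D1 siRNA and 27.6 TPM after control siRNA. ANAPC16, another subunit, went the other way, with 34.6 TPM after NR1D1 siRNA and 62.5 TPM after control siRNA. Among 16 condensin and cohesin subunits the 8505C median was 0.36, with NCAPH, a condensin I subunit, at 18.1 TPM after NR1D1 siRNA and 5.84 TPM after control siRNA and the only 1 past 2-fold. The 17 MuvB, DREAM, E2F and RB genes had an 8505C median of 0.07, or -0.01 with trimmed mean scaling, with 9 higher, 8 lower and 0 of them 2-fold higher. RBL2, which codes for the p130 pocket protein of DREAM, was the 1 gene 2-fold lower, with 36.0 TPM after NR1D1 siRNA and 73.1 TPM after control siRNA, and is named because of that value. LIN9, a MuvB subunit, had 7.88 TPM after NR1D1 siRNA and 4.59 TPM after control siRNA while E2F1 had 14.5 TPM after NR1D1 siRNA and 7.49 TPM after control siRNA. The 12 CDK inhibitors and quiescence genes, which restrain the cycle, had a median of 0.67 in 8505C with 4 genes 2-fold higher, and CDKN1A, the p21 gene, had 34.4 TPM after NR1D1 siRNA and 14.2 TPM after control siRNA. In CAL-62 the inhibitors' median was 0.00, or 0.12 without mitochondrial genes, and in TPC-1 and FTC-133 it was 0.24 and -0.29. CDKN2A and CDKN2B were at 0 TPM in both CAL-62 libraries, so their ratios of 0 there measure neither a response nor its absence. Both ratios of 0 enter the CAL-62 medians of this list. Of the 12 genes 4 were higher and 6 lower in CAL-62 with the scaling as given.

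**Figure D5:**
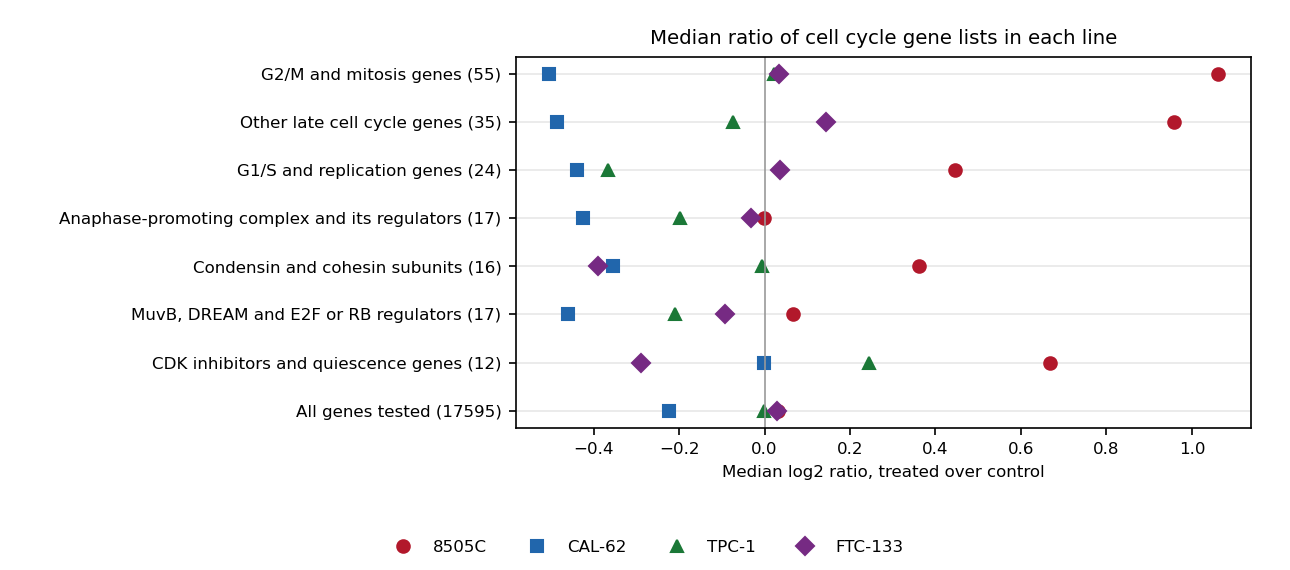
Median log2 ratio of (TPM + 1), NR1D1 siRNA or vector over control, for the 55 members, 6 other cell cycle lists and all genes tested (rows, with the number measured), 1 symbol a line. The members and the other late cell cycle genes lie near 1 in 8505C, and the anaphase-promoting complex list lies at 0.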

How the data were processed

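The data were deposited gene tables for 8 RNA-seq libraries on GRCh38, made with Trimmomatic 0.38 for trimming and featureCounts 2.0.0 for counting, per the submitters' processing notes. The aligner, annotation and strand setting are not given in the sources used here. Tables for 8505C and CAL-62 hold TPM made by the authors and sum to 1e+06. The deposited TPC-1 and FTC-133 tables are named TPM by the authors but have the sums of FPKM, and were used as FPKM rescaled to 1e+06.

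Ratios are log2 of (TPM + 1) within a table, NR1D1 siRNA or vector over control. Genes needed a mean of at least 1 TPM. Reads were recovered from value times GENCODE 29 exon length, with 92.8% to 93.8% of values of 1 to 10 reads whole within 0.02. Conditional exact 95% intervals use these reads and cover counting error only. limma 3.58.1 (R 4.3.3) fitted the 4 ratios, with Benjamini-Hochberg adjustment at 0.05, and was tested on simulated data. As nothing in the labels says that cultures were replicated, p-values measure only the spread between lines. For the contrast that spread also holds the difference between siRNA and vector. Libraries were paired by cell line. Members named in full were the extremes of each role group and of the contrast, and all past 2-fold outside 8505C. The members and lists were chosen with earlier results of these data known. Promoters came from RefSeq.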

Additional observations from a re-analysis of the deposited data

Results flagged for a closer look

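An siRNA against NR1D1 gave opposite signs in its pair of lines. In all, 51 of 56 members were higher after NR1D1 siRNA than after control siRNA in 8505C and lower in CAL-62, beside 27.5% of the 17595 genes tested. The difference was not tested for this count, since each line has 1 library a group. The count was 40 of 55 with trimmed mean scaling, 32 of 56 without mitochondrial genes and 46 of 55 after adjustment for GC content and length, beside 18.6%, 15.1% and 25.3% of all genes.

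With the NR1D1 vector, 41 of 56 members had opposite signs in TPC-1 and FTC-133, beside 50.2% of the 17595 genes tested, and this too was not tested. The count was 42 of 55 with trimmed mean scaling, 43 of 56 without mitochondrial genes and 38 of 55 after adjustment for GC content and length, beside 49.4%, 47.7% and 53% of all genes.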

How the results depend on the processing

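No paired analysis was possible because the labels give no replicate numbers, beyond the pairing by cell line that each ratio already holds. The alternatives were a pseudocount of 0.1, a filter at 5 TPM or none, trimmed mean scaling, scaling without mitochondrial genes, 1 prior for all genes, each line left out, and an adjustment for GC content and length chosen after seeing the data. Under all of them limma called 0 members after adjustment in each comparison, with smallest adjusted p from 0.227 to 0.707 for the siRNA lines, from 0.696 to 1 for the vector lines and from 0.07 (no filter) to 1 for the contrast. Over all genes the adjusted calls were 0 except 77 for the siRNA lines and 7 for the vector lines at 5 TPM, and 881 for the contrast with no filter. In CAL-62 the count 2-fold lower was 0 with trimmed mean scaling and 0 without mitochondrial genes, against 3, and the median was -0.28 and -0.11, against -0.50. The FTC-133 count 2-fold lower was 1 with the GC and length adjustment, against 3. For the siRNA lines, members at an unadjusted p under 0.05 numbered 3 at 5 TPM, 2 with trimmed mean scaling, 5 without mitochondrial genes, 4 with the GC and length adjustment and from 0 to 16 with a line left out. Their median was 0.50 without mitochondrial genes, and from -0.50 without 8505C, a reversed sign, to 1.06 without CAL-62. In the contrast, that unadjusted count was 8 to 20 with a line left out, and the contrast could not be fitted without 8505C. BUB3 turned sign there, to -0.10 with trimmed mean scaling, -0.12 without mitochondrial genes and -0.16 without CAL-62, with 0.20 as the highest value with a line left out. The cause was not tested. Leaving a line out leaves its approach with 1 ratio, assumed to vary like the others. Depth limits PRC1, which had 7 to 59 reads a library.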

Other observations

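Among the other late cell cycle genes, PKMYT1, a kinase that restrains CDK1, had 5.004 TPM after NR1D1 siRNA and 0.84 TPM after control siRNA in 8505C, and 2.13 TPM after NR1D1 siRNA and 2.94 TPM after control siRNA in CAL-62. Among the quiescence genes, CCNG2, which is induced when cells leave the cycle, had 30.6 TPM after NR1D1 siRNA and 9.65 TPM after control siRNA in 8505C. In TPC-1 it had 39.1 TPM with the NR1D1 vector and 17.1 TPM with the empty vector. GADD45A, a growth arrest gene, had 69.4 TPM after NR1D1 siRNA and 32.7 TPM after control siRNA in 8505C. In TPC-1 it had 168 TPM with the NR1D1 vector and 432 TPM with the empty vector.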
